A study of Rattus norvegicus with 6 samples.

Results

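The genes of intraflagellar transport (IFT) and of the BBSome were followed through germ cell development in single cells of rat testis. Members were all row names of the deposited tables that begin with Ift or Bbs and a digit, together with Ttc8, Ttc21b, the Ttc30 genes, Wdr19 and Wdr35. This rule found 28 of the 21170 listed genes. They comprise 6 subunits of complex IFT-A, 13 of complex IFT-B, 7 of the BBSome and 2 chaperonin-like genes. Testicular tissue came from 3 SD rats exposed to a terrified-sound stress model, labelled post-stressed, and from 3 control SD rats, labelled normal, with 1 library for each animal. The stressed libraries held 409, 2506 and 2233 cells and the control libraries 2342, 1801 and 2453 cells. The labels used here give no age, no length of exposure and no sorting step for either group.

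Cilia and sperm tails are built by trains that carry cargo along microtubules. IFT-B trains move outward with kinesin-2 motors and IFT-A is needed for the return with dynein-2, while the BBSome is an adaptor that links membrane proteins to the trains. In the testis the sperm tail is laid down in early spermatids, and in mice the loss of several IFT or BBS genes leaves sperm with short, malformed or missing tails.

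Cells were assigned to classes from marker genes after clustering without the members or their partner genes. The spermatocyte class held 1413 cells that were spermatocyte-like by their markers. The round class held 4157 round spermatid-like cells and the elongating class 6152 elongating spermatid-like cells, while 22 cells stayed unnamed. Levels are given as CPM, the counts of a gene in a class scaled to a fixed total over all genes of that class in that library. Several libraries stood apart, so a class is made of different clusters in different libraries. Control replicate 2 had 1 to 16 cells in each of the 8 largest clusters and the most cells of any library in 9 others, and control replicate 3 had none in 8 of the 22 clusters. Stressed replicate 1 had 2 to 21 cells in each of the 8 largest clusters and 24 spermatocyte-like cells in all. It also supplied 163 of the 181 cells of a cluster in the elongating class whose 10 leading genes were headed by Prss58, Apoe and Tnp2 and included Fos, called the Apoe and Fos cluster here. Stressed replicate 1 had 267 elongating spermatid-like cells, so most of its elongating class came from this cluster. The summed level of 13 macrophage markers was 680, 312 and 571 CPM in stressed replicate 1 in the spermatocyte, round and elongating classes, and at most 68.9, 124.8 and 80.9 CPM in the other libraries. The summed level of 9 stromal markers was 791, 24.9 and 41.6 CPM in stressed replicate 1, and at most 19.7, 21.4 and 4.91 CPM in the others. Of the listed markers of multiciliated cells, which also use these genes, Ccdc78 was at or below 2.80 CPM and Cdhr3 at or below 0.780 CPM in every class and library, while Tekt1 and Deup1 were high in the germ cells themselves. Median counts per cell were 26380 to 42720 in the spermatocyte class, 29680 to 49460 in the round class and 27200 to 40640 in the elongating class. Libraries shared at most 1 cell barcode with any other library.

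Most IFT and BBS genes had their highest level in the spermatocyte or round class and a low share of the counts in the elongating class. Among the exceptions, Bbs5, a low member, was highest in the elongating class. Wdr35 stayed near its round level there, and Ift57 kept a large part of its level. Their summed level was 5705 ± 894.5 CPM in the spermatocyte class, 3457 ± 710 CPM in the round class and 717 ± 103 CPM in the elongating class (mean ± SD, n = 6 libraries). Ift74 alone held 53.9% of the 1150253 counts of all members. In the summed levels it averaged 2729, 2003 and 278 CPM in the same order of classes. It is thus a large part of each sum, but the differences between classes are not those of Ift74 alone. CPM is a share of the counts of a class, so less RNA of a gene and more RNA of other genes cannot be told apart. The 50 most abundant genes took 39.9% to 43.2% of the counts in the elongating class, against 17.2% to 21.2% in the round class.

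Stage ratios were taken within each library as log2 of CPM + 1, for the 21 members that averaged at least 10 CPM over the classes. The classes were themselves made from expression, so these ratios are a description with no test. Between the round and spermatocyte classes the median member ratio was -2.01, with an SD of 0.13 over the medians of the 6 libraries, while the median of all 6073 genes kept was -0.49. No member was at least 2-fold higher in every library, where 22.6% of all genes were. At least 2-fold lower in every library were 12 of the 21 members, where 22.9% of all genes were. Between the elongating and round classes the median member ratio was -2.52, with an SD of 0.27, against -1.41 over all genes. In that contrast 18 of the 21 members were at least 2-fold lower in every library, where 46.8% of all genes were, and none was at least 2-fold higher, where 4.02% of all genes were. Scaling by TMM, which anchors on the bulk of genes, moved the all-gene median up by 0.48 in the first contrast and by 1.22 in the second. With it the median member ratios were -1.51 and -1.60, and the members at least 2-fold apart in every library were 9 lower in the first contrast, and 1 higher and 9 lower in the second. The shares of all genes above are for CPM without this scaling, so they are no background for these TMM counts. Relative to the all-gene median, 15 members lay below and 6 above it in the first contrast, and 19 below and 2 above it in the second. The passing members had to be abundant in some class, so these counts do not stand for all 28. Bbs2, Bbs7, Bbs9 and Ift80, all among the 12, averaged under 10 CPM in both the round and the elongating class. They passed only through the spermatocyte class, so the count of 12 is partly set by the filter.

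**Figure D1:**
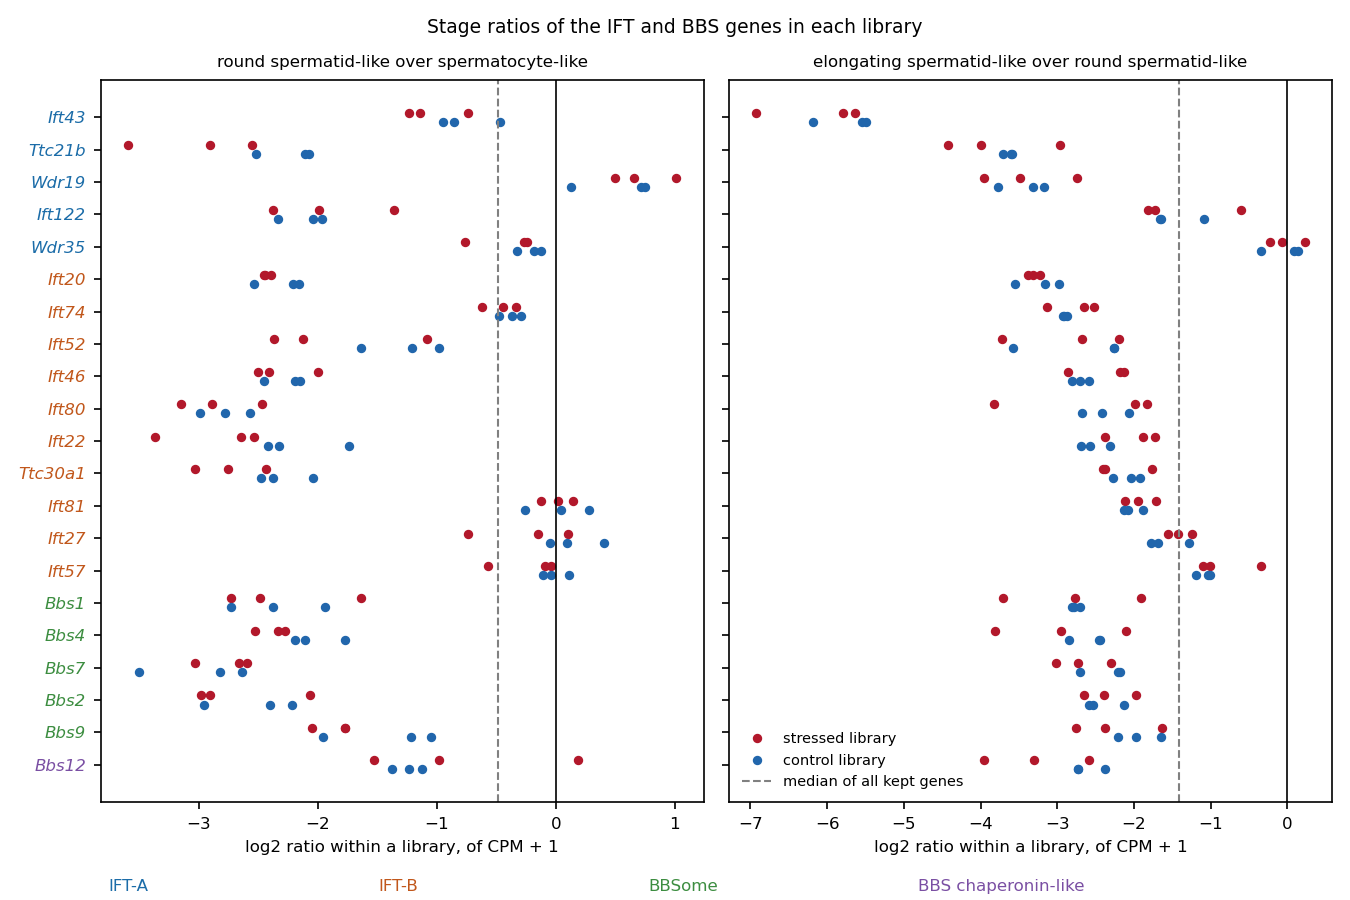
Each point is 1 library's log2 ratio of CPM + 1 for a member, between the round and spermatocyte classes on the left and between the elongating and round classes on the right, with gene names coloured by complex. The dashed line marks the median of all genes kept, at -0.49 and -1.41. On the right Wdr35 sits near 0 and Ift43 lies lowest, at a mean of -5.93.

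The subunits of IFT-A took the most divergent courses. Ift43, a small peripheral subunit, had a median of 470 CPM in the spermatocyte class, 249 CPM in the round class and 3.44 CPM in the elongating class. Its libraries ranged over 364 to 544 CPM, then 192 to 284 CPM, then 0.589 to 5.31 CPM, so the elongating class did not overlap the earlier classes. The log2 ratios between the elongating and round classes were -6.92, -5.79 and -5.63 in the stressed libraries and -5.54, -6.18 and -5.50 in the control libraries. Their mean of -5.93 ± 0.55 (SD, n = 6) was the lowest of the members kept, 4.52 below the all-gene median. The value of -6.92 is that of stressed replicate 1, most of whose elongating cells lay in the Apoe and Fos cluster. Wdr35, another peripheral subunit, took another course. Its medians were 147 CPM in the spermatocyte class, 117 CPM in the round class and 107 CPM in the elongating class, and the ranges of 98.3 to 197 CPM, 87.5 to 141 CPM and 98.8 to 129 CPM overlapped. Between the elongating and round classes its log2 ratio was -0.22, 0.22 and -0.07 in the stressed libraries and -0.35, 0.14 and 0.09 in the control libraries, a mean of -0.03 ± 0.22 (SD, n = 6). The direction for Wdr35 therefore varied between libraries, and with TMM scaling it became a mean of 1.36, higher in the elongating class.

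Wdr19, a core subunit of IFT-A, was higher in the round than in the spermatocyte class in all 6 libraries, with a mean log2 ratio of 0.63 ± 0.30 (SD, n = 6). Its medians were 52.4 CPM (28.8 to 78.3) in the spermatocyte class, 83.6 CPM (59.2 to 93.0) in the round class and 6.79 CPM (4.38 to 8.48) in the elongating class, and its log2 ratio between the elongating and round classes was -3.41 ± 0.44 (SD, n = 6). Ttc21b, an IFT-A subunit needed for the return transport, was already 2-fold or more lower in the round class in every library. Its medians were 185 CPM (106 to 281), 23.8 CPM (22.3 to 47.2) and 1.34 CPM (0.0841 to 2.96) in the 3 classes in order of development, and its mean log2 ratios were -2.63 and -3.71. Ift122 had medians of 80.9 CPM (68.8 to 124), 17.9 CPM (16.4 to 31.0) and 6.05 CPM (3.99 to 17.1), and its log2 ratio of -1.42 ± 0.48 between the elongating and round classes lay at the all-gene median. Ift140, also of the core, did not reach the 10 CPM mean and is given with the other low members.

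Among the IFT-B subunits a pair of courses stood side by side. Ift81, Ift57 and Ift27 stayed near their spermatocyte level in the round class. Ift74, which binds tubulin cargo together with Ift81, was lower there in all 6 libraries, by less than 2-fold in each. The mean log2 ratios between the round and spermatocyte classes were -0.43 ± 0.12 for Ift74, 0.02 ± 0.19 for Ift81, -0.12 ± 0.23 for Ift57 and -0.06 ± 0.38 for Ift27, a small GTPase of the train (SD, n = 6). Under TMM scaling Ift74, Ift57 and Ift27 turned to ratios above 0, as did Wdr35 of IFT-A, so for these 4 genes only the position above the all-gene median held under both scalings. The other 6 IFT-B subunits kept were lower in the round class in all 6 libraries, and 5 of them, Ift20, Ift22, Ift46, Ift80 and Ttc30a1, at least 2-fold lower in each. Ift80, a subunit linked in people to skeletal ciliopathy, had medians of 59.7 CPM (37.0 to 121) in the spermatocyte class, 7.16 CPM (4.54 to 15.5) in the round class and 0.635 CPM (0.168 to 1.12) in the elongating class. It passed the level filter only through the spermatocyte class, so its lower later levels are partly set by the filter.

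Ift57 kept a large part of its level in the last class. Its median was 293 CPM in the spermatocyte class, 296 CPM in the round class and 139 CPM in the elongating class, with ranges of 262 to 396 CPM, 175 to 367 CPM and 130 to 178 CPM. Its log2 ratio between the elongating and round classes was -0.95 ± 0.30 (SD, n = 6), 0.46 above the all-gene median, and turned to 0.45 under TMM scaling. Ift74 had medians of 2592 CPM, 1816 CPM and 257 CPM in the same order of classes. Ift27 had medians of 216 CPM (182 to 265), 214 CPM (159 to 241) and 73.2 CPM (66.4 to 82.3), and Ift81 of 186 CPM (142 to 258), 199 CPM (168 to 218) and 48.6 CPM (38.5 to 58.0). The elongating class lay below the range of the round class for each of these 3 genes. The Ttc30 genes are near copies of each other, and how their shared reads were divided is not given in the sources used here.

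The BBSome subunits that passed the level filter shared a course, while Bbs5, which did not pass it, took another. All 5 kept, Bbs1, Bbs2, Bbs4, Bbs7 and Bbs9, were at least 2-fold lower in the round than in the spermatocyte class in every library, and again in the elongating than in the round class. The median ratios of the 5 were -2.32 and -2.52 on the log2 scale. Bbs2, Bbs7 and Bbs9 averaged 48.1, 53.4 and 31.0 CPM in the spermatocyte class, and 6.94, 6.34 and 8.92 CPM in the round class. They passed the filter of a 10 CPM mean only through the spermatocyte class. A lower level in later classes is thus partly set by the filter for these genes, and the shared course is no separate support. Bbs4, whose repeats bind partner proteins, had a median of 137 CPM (range 111 to 182) in the spermatocyte class, 29.6 CPM (21.3 to 39.1) in the round class and 4.22 CPM (0.589 to 6.12) in the elongating class. Bbs1, the subunit through which Arl6 brings the BBSome to membranes, had medians of 94.9 CPM (80.2 to 186), 20.6 CPM (11.2 to 27.1) and 2.17 CPM (1.09 to 3.01). For both genes no library of a later class reached the range of the earlier one. Bbs7, part of the propeller core, had the lowest ratio of the members kept between the round and spermatocyte classes, at -2.88 ± 0.35 (SD, n = 6), with 33.2 to 81.8 CPM in the spermatocyte class and 3.83 to 9.14 CPM in the round class. The elongating class held 57 Bbs7 counts over its 6152 cells. Bbs12, which helps fold BBSome subunits, was lower in the round class in 5 of 6 libraries, with medians of 54.8 CPM (25.4 to 66.1), 27.3 CPM (16.4 to 29.5) and 2.44 CPM (0.925 to 3.31) in the 3 classes. The first of these ranges overlapped the next, through stressed replicate 1 at 25.4 CPM.

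**Figure D2:**
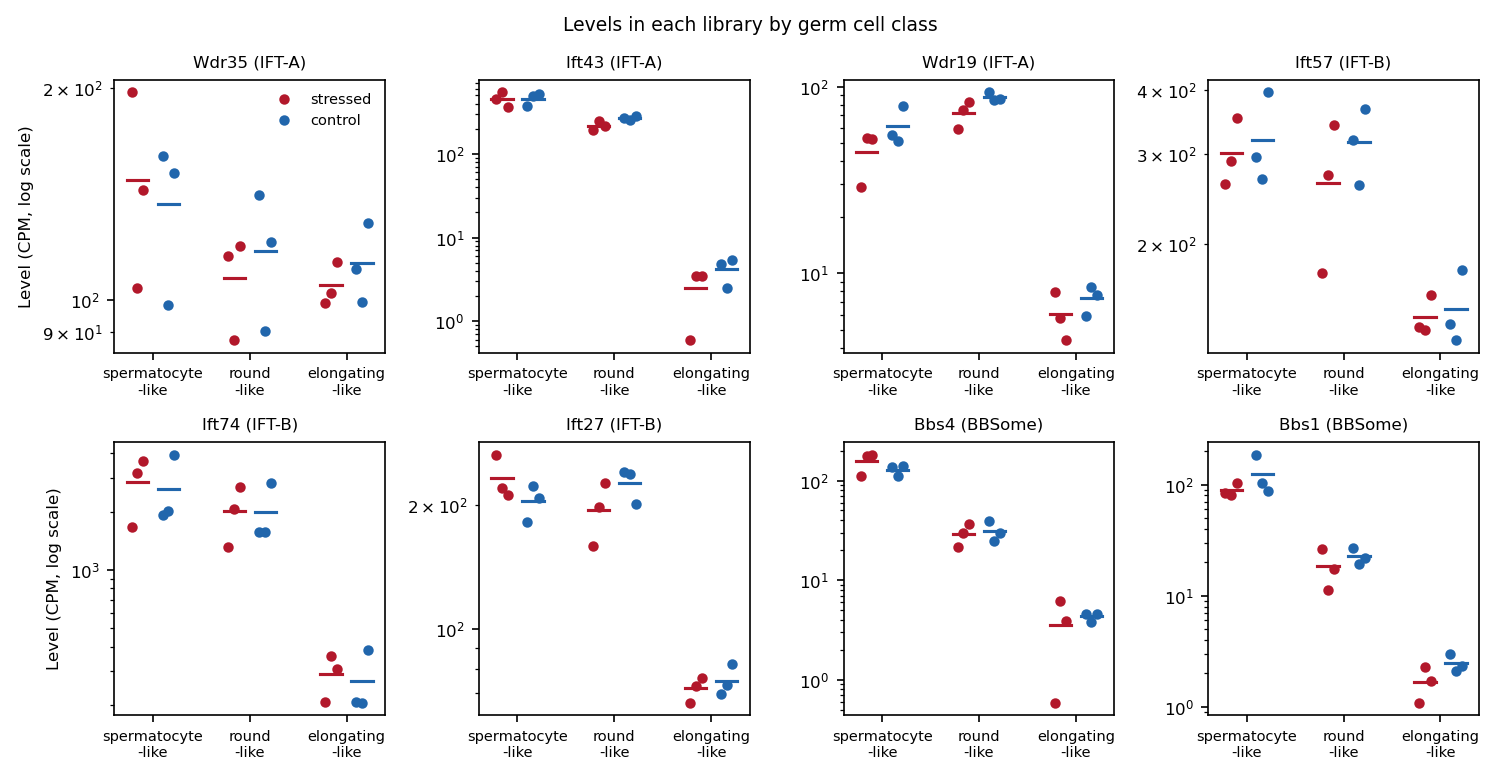
Levels in CPM on a log axis for 8 members in the 3 germ cell classes, with 1 point for each library, stressed left of control, and a bar at each group's mean. Wdr35 spans 87.5 to 197 CPM over all classes and libraries, while Ift43 is at or below 5.31 CPM in the elongating class.

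The 7 members under the 10 CPM mean were Ift140, Ift88, Ttc30a, Ttc30b, Bbs5, Bbs10 and Ttc8, with 162 to 2754 counts each over all cells. Of these, 5 were lower in the round than in the spermatocyte class in all 6 libraries, and Bbs10 in 5 of 6. Ift140 had medians of 13.5 CPM, 2.60 CPM and 0.509 CPM in the 3 classes. Bbs5, a lipid-binding subunit of the BBSome, was the exception, with medians of 4.07 CPM in the spermatocyte class, 4.87 CPM in the round class and 6.78 CPM in the elongating class. Bbs10, the other chaperonin-like gene, had medians of 4.89 CPM, 1.16 CPM and 0.0700 CPM. Bbs5 was higher in the elongating than in the round class in 5 of 6 libraries, by a mean of 0.35 on the log2 scale.

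A finer view came from 10 ordered steps, made by merging clusters along the course of their marker genes. The merging was done after the markers and the libraries of each cluster had been seen, so the steps are a description, and the Apoe and Fos cluster, a cluster of 104 cells in the round class and the unnamed cells have no step. Steps 1 and 2 lie in the spermatocyte class, 3 to 5 in the round class and 6 to 10 in the elongating class. A library entered a step with at least 20 cells, which leaves 4 libraries at step 1, 5 at step 2, 4 at step 10 and 6 elsewhere. Psma8, a proteasome gene of meiosis, averaged 1883 CPM at step 1 and 154 CPM at step 2, Sun5 peaked at step 4 with 670 CPM, Tnp1 at step 8 with 40816 CPM, and Oaz3, a late spermatid gene, reached 96827 CPM at step 10.

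The members peaked at steps 1 to 3, apart from Bbs5 among the low members. All 5 BBSome subunits kept peaked at step 1, as did Ift122 and Ttc21b of IFT-A and Ift20, Ift22, Ift80 and Ttc30a1 of IFT-B. Ift46, Ift52 and Bbs12 peaked at step 2. Wdr19, Wdr35 and Ift43 of IFT-A and Ift27, Ift57, Ift74 and Ift81 of IFT-B peaked at step 3, the first step of the round class. By step 9, 16 of the 21 members were below 5% of their highest step, and 2, Wdr35 and Ift57, were above 20%. Step levels were worked out for members, partners and step markers only, so these counts have no share of all genes beside them. Early peaks and low levels at step 9 may be common among genes and are not read as particular to the members.

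**Figure D3:**
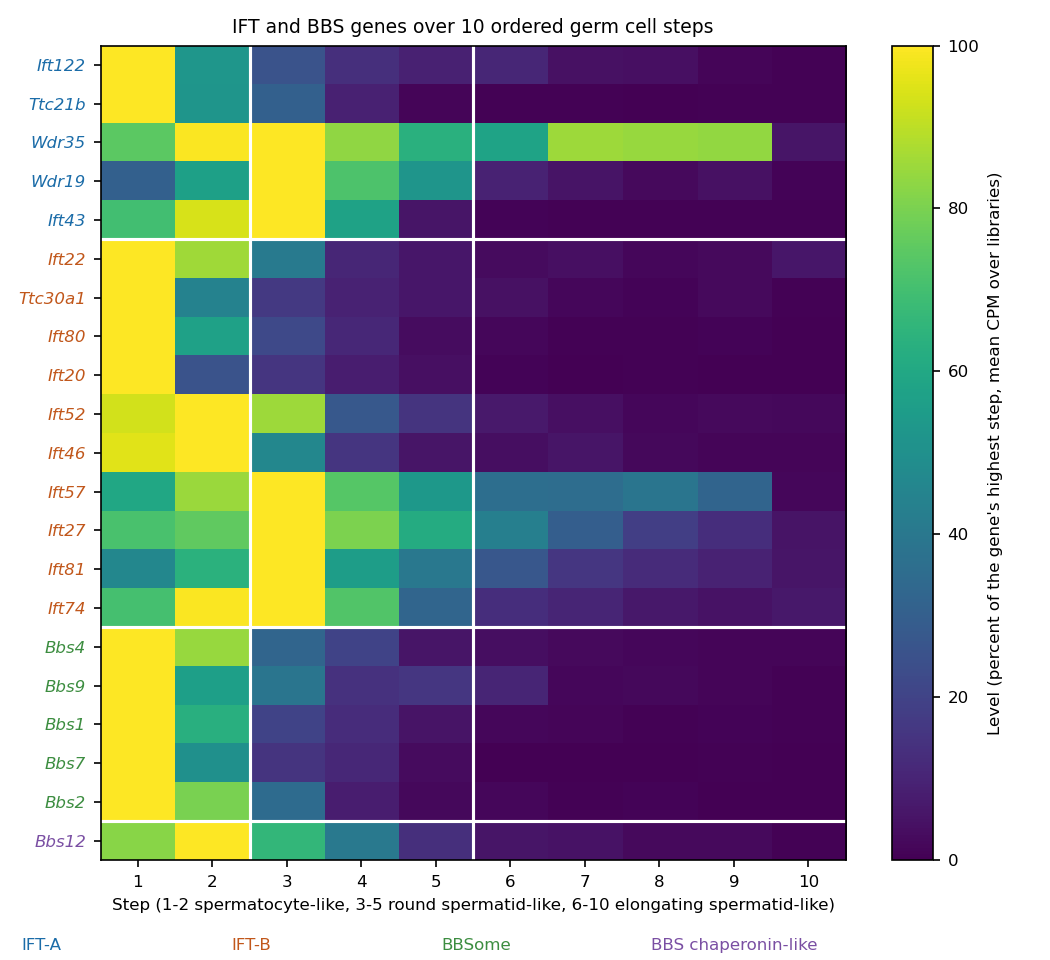
Mean level of each of the 21 members kept at 10 ordered steps, as a percent of the gene's highest step, with genes grouped by complex and white lines between classes and complexes. The BBSome rows are brightest at step 1, Wdr35 stays bright to step 9 at 83.8% of its highest step, and all rows are at or near the dark end of the scale at step 10.

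The largest gap between neighbouring steps differed between Ift43 and Wdr19. Ift43 averaged 521 ± 98.7 CPM at step 3, 299.8 ± 39.6 CPM at step 4, 29.1 ± 10.3 CPM at step 5 and 4.10 ± 2.01 CPM at step 6 (SD, n = 6). The lowest library at step 4, at 234 CPM, was above the highest at step 5, at 43.8 CPM. Wdr19 averaged 116 ± 12.8 CPM at step 3, 60.8 ± 9.32 CPM at step 5 and 11.2 ± 2.77 CPM at step 6 (SD, n = 6), so its gap lay between steps 5 and 6, 1 step after that of Ift43. Wdr35 averaged 140 ± 22.7 CPM at step 3, 81.2 ± 5.39 CPM at step 6 and 118 ± 32.9 CPM at step 9 (SD, n = 6), and 7.76 ± 4.85 CPM at step 10 (SD, n = 4). Ift57 averaged 130 ± 31.9 CPM at step 9 (n = 6) and 7.42 ± 4.89 CPM at step 10 (n = 4). For both genes the highest library at step 10, at 12.7 CPM for Wdr35 and 13.9 CPM for Ift57, was below the lowest at step 9, at 87.0 CPM and 89.2 CPM. Bbs5 was highest at step 6, at 13.1 ± 6.23 CPM (SD, n = 6), and had no count at step 10.

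Promoter windows from RefSeq (build GRCr8), reaching from 250 bases before to 50 after the annotated start, were found for 23 of the 28 members. They were searched on both strands for the X-box, the sequence bound by RFX factors, which drive ciliary genes. The X-box is a pair of half-sites, GTNNCC and GGNNAC, and its palindromic form, with the bases AT between them, was in none of the 23 windows and in 0.508% of all 33469 windows of this length. The looser form, with any 2 bases between the half-sites, was in 3 of the 23, Wdr19, Ift22 and Ift140, and in 1.83% of all windows. The single half-site GTTGCC, which fits inside the looser form, was in 9 members, or 39.1%, and in 12.2% of all windows, and none of these members' 11 half-site matches lay inside a looser match. Shown here are the windows of Wdr19 and Ift22, which passed the level filter and hold the looser form, and of Wdr35 and Ift43, which had the most opposed courses. Capitals mark the looser form or the half-site on either strand. The windows are Wdr19 at chr14:43459890-43460189 (minus strand), Ift22 at chr12:25405461-25405760 (minus strand), Wdr35 at chr6:37490321-37490620 (plus strand) and Ift43 at chr6:111460501-111460800 (plus strand).
Wdr19: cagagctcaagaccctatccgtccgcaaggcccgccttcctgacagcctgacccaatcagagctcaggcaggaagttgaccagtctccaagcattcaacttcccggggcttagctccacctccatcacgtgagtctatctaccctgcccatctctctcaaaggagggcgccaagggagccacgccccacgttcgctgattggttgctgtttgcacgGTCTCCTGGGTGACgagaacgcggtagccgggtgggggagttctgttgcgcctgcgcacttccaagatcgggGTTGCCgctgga
Ift22: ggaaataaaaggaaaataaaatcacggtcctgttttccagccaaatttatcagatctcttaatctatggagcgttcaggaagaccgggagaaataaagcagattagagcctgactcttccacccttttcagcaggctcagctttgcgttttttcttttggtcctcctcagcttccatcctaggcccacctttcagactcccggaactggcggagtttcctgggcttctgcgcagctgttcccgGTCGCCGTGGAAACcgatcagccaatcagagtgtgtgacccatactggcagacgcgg
Wdr35: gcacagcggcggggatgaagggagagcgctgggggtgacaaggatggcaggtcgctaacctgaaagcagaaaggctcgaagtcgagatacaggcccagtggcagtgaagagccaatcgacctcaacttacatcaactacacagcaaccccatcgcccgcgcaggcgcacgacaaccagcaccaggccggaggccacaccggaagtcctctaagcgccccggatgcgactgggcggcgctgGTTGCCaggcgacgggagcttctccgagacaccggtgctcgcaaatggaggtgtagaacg
Ift43: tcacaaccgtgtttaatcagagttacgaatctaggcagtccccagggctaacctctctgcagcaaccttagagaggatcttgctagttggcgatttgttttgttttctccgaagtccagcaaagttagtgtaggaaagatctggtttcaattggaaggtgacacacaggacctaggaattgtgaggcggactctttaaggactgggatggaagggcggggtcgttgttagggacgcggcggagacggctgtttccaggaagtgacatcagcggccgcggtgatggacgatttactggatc
The looser form began at position -34 from the start in Wdr19 and at -7 in Ift22, and Wdr35 held a half-site at -10. The Ift43 window held neither form. These 2 genes with the looser form differed in course, since Wdr19 peaked at step 3 and Ift22 at step 1. A match describes the letters of the window and nothing of binding.

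The partner genes of the trains were followed in the same way, from a list of 35 genes in the tables of which 30 averaged at least 10 CPM. Between the round and spermatocyte classes 3 were at least 2-fold higher and 7 at least 2-fold lower in every library, with a median of -0.71. Of all genes 22.6% were higher and 22.9% lower by this rule, so the share of partners that were lower was near the background. Between the elongating and round classes none was higher and 20 of the 30 were lower, where 46.8% of all genes were, with a median of -2.13 beside -1.41 over all genes. The 3 that were higher in the round class were Kif17 and Kifap3, a motor and the accessory subunit of kinesin-2, and Rfx4 of the RFX family. Kifap3 averaged 282 ± 105 CPM in the spermatocyte class, 1125 ± 124 CPM in the round class and 804 ± 62.0 CPM in the elongating class (SD, n = 6). Kif17 averaged 14.2 ± 5.92 CPM, 86.8 ± 48.2 CPM and 101 ± 52.6 CPM in the same classes, and its log2 ratio of 0.21 ± 0.39 between the last 2 classes was above 0 in 4 of 6 libraries.

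Most dynein-2 genes were lower in later classes. Dync2h1, the heavy chain of the motor, averaged 408 ± 134 CPM in the spermatocyte class, 68.2 ± 20.9 CPM in the round class and 9.74 ± 2.92 CPM in the elongating class (SD, n = 6). Of the 7 dynein-2 genes, 2 were at least 2-fold lower in the round than in the spermatocyte class in every library, where 22.9% of all genes were. Dync2i1 was higher in that contrast, by a mean of 0.27 on the log2 scale. At least 2-fold lower in the elongating than in the round class in every library were 5, where 46.8% of all genes were. Dynlt2b and Dynlrb2, light chains of the motor, had log2 ratios of -4.89 ± 0.33 and -4.53 ± 0.18 between the elongating and round classes. Rab8a, a GTPase of ciliary membrane traffic, had the lowest ratio of the partners between the round and spermatocyte classes, at -3.17 ± 0.68, and Dynlrb1 had -2.56 ± 1.34, with stressed replicate 1 far below the rest at -5.14. Cep290, a protein of the gate at the base of the cilium, averaged 935 ± 439 CPM, 1811 ± 504 CPM and 15.6 ± 5.37 CPM in the 3 classes, and its ratio of -6.78 ± 0.35 was the lowest of all partners between the elongating and round classes. Rab28, a GTPase of the BBSome pathway, and Rab3ip, which activates Rab8, were higher in the elongating than in the round class in all 6 libraries, by 0.72 ± 0.18 and 0.41 ± 0.17 on the log2 scale (SD, n = 6).

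No member passed the test between stressed and control rats in any class. Counts were summed for each library and class and compared with edgeR's quasi-likelihood test, with p-values adjusted by Benjamini-Hochberg over all genes tested. Of the members, 27 were tested in the spermatocyte class, 28 in the round class and 24 in the elongating class, and the lowest adjusted p was 1.00 in the first class and 0.999 in the others. An adjusted p under 0.05 was reached by 0.0% of all genes in the spermatocyte class, 0.0163% in the round class and 0.00919% in the elongating class, so few genes of any kind passed. No member had an unadjusted p under 0.05 in this test, where 197 of 10125 genes, 349 of 12254 genes and 212 of 10882 genes had. DESeq2, run as an alternative, also called no member. In simulated data 4%, 10% and 5% of 2-fold changes were recovered in the spermatocyte, round and elongating classes. A missing call therefore does not show that a gene was unchanged.

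The estimates themselves lay on both sides of 0. In the spermatocyte class 18 members were higher and 9 lower in stressed rats, with a median log2 ratio of 0.08 beside -0.03 over all genes. In the round class 10 were higher and 18 lower, with a median of -0.13 beside 0.00. In the elongating class 8 were higher and 16 lower, with a median of -0.20 beside 0.00. The standard error of a single member's estimate had a median of 0.38, 0.32 and 0.51 in these classes. Without stressed replicate 1 the member medians were 0.02, -0.07 and -0.10, without control replicate 2 they were 0.09, -0.15 and -0.14, and without control replicate 3 they were 0.10, -0.12 and -0.16 in the same order. Without the Apoe and Fos cluster the elongating class gave 4 higher and 20 lower members, with a median of -0.11. The part of the macrophage and stromal markers of stressed replicate 1 in these estimates was otherwise not tested.

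**Figure D4:**
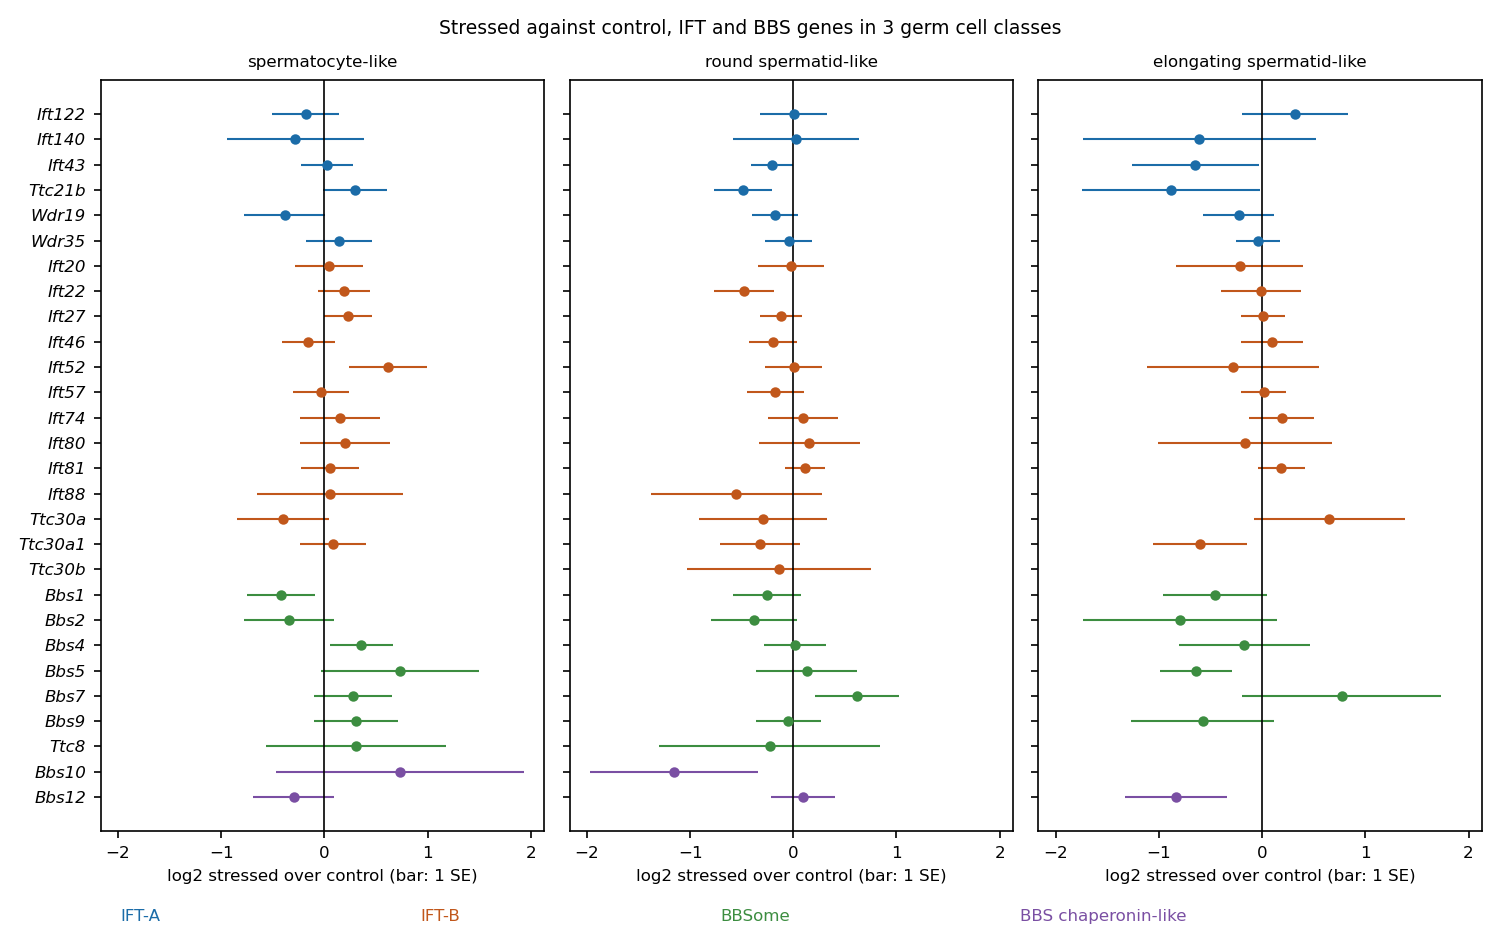
log2 ratio of stressed over control from edgeR for each member tested, with bars of 1 standard error, in the spermatocyte, round and elongating classes, coloured by complex. The estimates range from -1.16 for Bbs10 in the round class to 0.77 for Bbs7 in the elongating class, and none passed the test.

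In the spermatocyte class the smallest unadjusted p of a member was that of Ift52, a core subunit of IFT-B, at 0.133 by edgeR. Ift52 had 84.2, 64.4 and 34.3 CPM in stressed rats, against 36.4, 48.0 and 36.5 CPM in control rats, a log2 ratio of 0.62 with a standard error of 0.38. The groups overlapped, since stressed replicate 3 lay below all controls. Bbs1 had 84.2, 80.2 and 102 CPM in stressed rats, against 186, 104 and 87.4 CPM in control rats, and Bbs4 had 112, 176 and 182 CPM, against 136, 111 and 139 CPM. Ift27 had 265, 220 and 212 CPM in stressed rats, against 182, 223 and 208 CPM in control rats. Only Ttc30a of the 27 had groups that did not overlap, with 10.4, 11.98 and 12.6 CPM in stressed rats, against 17.98, 14.9 and 15.9 CPM in control rats, where 8.44% of all genes did not overlap.

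In the round class Ttc21b had 22.3, 23.1 and 23.0 CPM in stressed rats, against 47.2, 32.4 and 24.5 CPM in control rats. All stressed libraries were below all controls, and the log2 ratio was -0.49 with a standard error of 0.28 and an unadjusted p of 0.110 by edgeR. Ift43 had 192, 246 and 218 CPM in stressed rats, against 272, 252 and 284 CPM in control rats, a log2 ratio of -0.21 with a standard error of 0.20. Wdr19 had 59.2, 75.1 and 82.7 CPM in stressed rats, against 93.0, 84.5 and 85.4 CPM in control rats, a log2 ratio of -0.18 with a standard error of 0.22. These 3 IFT-A genes were the members whose groups did not overlap, 3 of 28, where 8.33% of all genes did not overlap. Ift22, a Rab-like subunit, had 32.2, 22.7 and 39.8 CPM in stressed rats, against 61.6, 35.3 and 43.1 CPM in control rats, and Bbs7 had 9.14, 8.23 and 5.03 CPM, against 7.05, 4.76 and 3.83 CPM. Bbs10 had 1.27, 0.580 and 0.159 CPM in stressed rats, against 1.44, 1.63 and 1.05 CPM in control rats. The groups of these 3 genes overlapped.

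In the elongating class Bbs5 had 3.70, 6.02 and 5.37 CPM in stressed rats, against 7.53, 7.67 and 9.71 CPM in control rats, a log2 ratio of -0.64 with a standard error of 0.35 and an unadjusted p of 0.0907 by edgeR. Bbs12 had 0.925, 1.89 and 2.08 CPM in stressed rats, against 3.31, 2.80 and 3.25 CPM in control rats, a log2 ratio of -0.83 with a standard error of 0.49. These were the 2 of 24 members whose groups did not overlap, where 8.34% of all genes did not overlap. Ttc30a1 had 2.35, 2.01 and 3.16 CPM in stressed rats, against 4.66, 2.49 and 4.79 CPM in control rats, and Ift43 had 0.589, 3.47 and 3.42 CPM, against 4.85, 2.49 and 5.31 CPM. Both overlapped. Wdr35 and Ift57 had log2 ratios of -0.04 and 0.02 with standard errors of 0.21 and 0.22. Stressed replicate 1 was the lowest library for Bbs5, Bbs12 and Ift43 in this class. Most of its elongating cells came from the Apoe and Fos cluster, and library values without that cluster are not given here.

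Over all cells of a library together the 28 members gave 7 higher and 21 lower estimates in stressed rats, with a median of -0.15 beside -0.01 over 14519 genes. This split moved with single libraries. Without control replicate 1 it was 14 higher and 14 lower, with a median of -0.004. Without stressed replicate 1 it was 13 and 15, with -0.06, and without stressed replicate 3 it was 4 and 24, with -0.34. No member was called, where 0.00689% of all genes were, and only Ttc30b had groups that did not overlap, where 5.56% of all genes did not. The 4 members with the smallest unadjusted p by edgeR were Bbs1, Wdr19, Ift43 and Bbs2. Bbs1 had 11.3, 11.5 and 24.2 CPM in stressed rats, against 48.6, 15.0 and 18.1 CPM in control rats. Such sums also carry the make-up of a library, and spermatocyte cells made up 5.87% to 16.8% of the stressed libraries and 5.99% to 20.2% of the control libraries. Elongating cells made up 43.4% to 65.3% of the stressed libraries and 45.7% to 57.1% of the control libraries.

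Ift74 showed a difference between libraries that did not follow the groups. In the spermatocyte class it had 1661, 3164 and 3662 CPM in stressed rats, against 1930, 2020 and 3939 CPM in control rats. In the round class it had 1314, 2058 and 2686 CPM in stressed rats, against 1574, 1560 and 2824 CPM in control rats, and in the elongating class 208, 357 and 306 CPM, against 207, 205 and 384 CPM. Stressed replicates 2 and 3 and control replicate 3 were above the other 3 libraries in every class. The gene's span overlaps those of Lrrc19 and Mir872 in RefSeq, and strand use in counting is not stated in the labels.

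The partner genes gave no call either. In the spermatocyte class 7 of 31 partners had groups that did not overlap, 22.6% beside 8.44% of all genes, and in the round class 4 of 34, 11.8% beside 8.33%. In the elongating class they were 4 of 33, 12.1% beside 8.34%, and over all cells 1 of 35, 2.86% beside 5.56%. Rfx1 had 11.5, 5.62 and 6.99 CPM in the spermatocyte class of stressed rats, against 16.4, 25.0 and 24.8 CPM in that of control rats, a log2 ratio of -1.49 with a standard error of 0.50, an unadjusted p of 0.0128 and an adjusted p of 1.00 by edgeR. Rfx2, which drives ciliary genes in mouse spermatids, had 108, 83.8 and 109 CPM there in stressed rats, against 265, 109.7 and 146 CPM in control rats. In the round class Rfx2 had 45.4, 38.8 and 45.1 CPM in stressed rats, against 82.0, 59.6 and 51.8 CPM in control rats, so its groups did not overlap in either class, by a narrow gap in the first. Arl6, the GTPase that recruits the BBSome, had 46.7, 45.6 and 52.9 CPM in the round class of stressed rats, against 90.4, 62.4 and 66.4 CPM in that of control rats, a log2 ratio of -0.50 with a standard error of 0.22 and an adjusted p of 0.999 by edgeR. Its stressed libraries were also below all controls in the spermatocyte and elongating classes, where its log2 ratios were -0.41 and -0.90 with standard errors of 0.31 and 0.48. Over all cells the partners with the smallest unadjusted p were Arl6 and Bbip1, and both groups overlapped. Arl3, a GTPase that releases lipid-linked ciliary cargo, had 4.37, 10.6 and 7.25 CPM in the elongating class of stressed rats, against 10.7, 11.2 and 17.02 CPM in that of control rats.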

How the data were processed

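Single-cell RNA was measured in 6 libraries, 3 of stressed and 3 of control rats, made with the Singleron GEXSCOPE kit and sequenced on an Illumina NovaSeq per the labels' protocols. For each library the authors deposited whole-number counts, with genes in rows and cells in columns, and a normalized version that was not used here. The labels do not say if counts are reads or molecules. No aligner, genome build, annotation, strand setting or cell filter is named in the labels. The most genes found in any cell were 3491, 3498 and 3499 in stressed replicates 1 to 3. In control replicates 1 to 3 they were 3984, 3996 and 3559. The highest mitochondrial share of a cell was 4.59% to 4.995% over the libraries. The cells may thus have been filtered before deposit, and by limits that differ between the groups. The effect of this on the stressed and control estimates was not tested. Per the labels each library is a separate animal. Totals were 16756543, 93898869 and 74453303 counts in stressed replicates 1 to 3 and 94130353, 73650164 and 114984746 in control replicates 1 to 3, so stressed replicate 1 is the least precise.

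Cells were clustered on 1972 genes, the 2000 most variable less mitochondrial genes, members and partners. The settings were 30 principal components, 15 neighbours and Leiden resolution 1 (leidenalg 0.10.2), and clusters were named from listed markers. Scrublet, run through scanpy 1.11.5, called 72 cells (0.613%) as doublets, which were kept. Summed counts were tested with edgeR 4.0.16 (TMM, filterByExpr, quasi-likelihood). DESeq2 1.42.0, other scalings and filters, a replicate block, each library left out, clustering settings and doublet scores were alternatives. The tests were tried first on simulated data. Of simulated 2-fold changes, 4%, 10% and 5% were recovered in the spermatocyte, round and elongating classes. Of simulated 8-fold changes, 74%, 70% and 72% were recovered in the same order. The text names every member, with library values for the 2 members of each complex with most counts, the 3 highest and 3 lowest in each stage contrast and the 4 with the smallest p in each class. Of the partners it gives the 3 highest and 3 lowest in each stage contrast and the 2 with the smallest p in each class, and other partners named were chosen after their values were seen. The members and lists were chosen with earlier results of these data known. Among the listed symbols, 15 including Ift172 were not row names of the deposited counts, so no values under those symbols could be given.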

Additional observations from a re-analysis of the deposited data

How the results depend on the processing

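No member was called in any class or over all cells under any alternative run. The estimates of the 4 members with the smallest p in each kept their sign in all runs, with adjusted p from 0.634 upward. These members were picked by that p from the same data, so a kept sign is no separate support. The sizes of their estimates moved with single libraries left out, for Ttc21b in the round class from -0.65 to -0.27, for Ift52 in the spermatocyte class from 0.40 to 0.91 and for Bbs1 over all cells from -0.92 to -0.05. Counts over all genes moved. Without the filter 2 genes were called in the spermatocyte class and 2 over all cells, against 0 and 1. DESeq2 called 3, 8 and 4 in the spermatocyte and round classes and all cells, against 0, 2 and 1, and Leiden resolution 0.5 called 1 in the spermatocyte class. With the replicate block 1 gene was called in the round class, against 2, and no member. Same-numbered stressed and control libraries correlated at -0.09 to 0.13 in that class. With 3 libraries in each group such correlations cannot tell if the numbers pair the samples. In the other classes these correlations ran from -0.04 to 0.26, and over all cells from -0.14 to 0.21. Stressed replicate 1 did not correlate best with its own number, and stressed replicate 2 did so only in the spermatocyte class. Stressed replicate 3 did so in the spermatocyte and elongating classes and over all cells. Leaving out a library gave 0 to 3 genes in the round class, 0 to 2 in the elongating class and 0 to 3 over all cells. Round calls were 0 without control replicate 1 or without stressed replicate 2, elongating calls were 0 without control replicate 1 or 2 and 2 without stressed replicate 2. Over all cells, leaving out control replicate 1, control replicate 3 or stressed replicate 2 gave 0 genes, leaving out stressed replicate 1 gave 3, and leaving out stressed replicate 3 gave 2.

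For the stages, the median member ratio between the round and spermatocyte classes was -1.51 under TMM scaling, -1.64 with genes kept from 1 CPM and -2.16 at Leiden resolution 0.5, against -2.01. Between the elongating and round classes it was -1.60 under TMM scaling, with 10 members at least 2-fold apart in every library against 18, and -3.14 with a pseudocount of 0.1 CPM, against -2.52. The share of all genes under TMM scaling is not given here, so the count of 10 has no background beside it. Leaving out a library gave -2.14 to -1.94 and -2.59 to -2.43. The number of libraries, 3 in each group, and the 24 spermatocyte-like cells of stressed replicate 1 limit the precision. The Apoe and Fos alternative was chosen after seeing the data.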

Other observations

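The RFX factors themselves differed in course over the 10 steps. Rfx2 averaged 154 CPM at step 2 and 39.2 CPM at step 6, Rfx4 was highest at step 4 with 64.3 CPM, and Rfx3 was highest at step 3 with 53.2 CPM. Rfx1 averaged 0.200 CPM at step 1, 27.8 CPM at step 3 and 4.00 CPM at step 6. These levels are means over 4 to 6 libraries at each step and have no test, and the genes given here were chosen after their values were seen.

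Among the partners that remained in late spermatids, Kif17 averaged 147 CPM at step 9 and 166 CPM at step 10, while Kifap3 averaged 619 CPM at step 9 and 89.0 CPM at step 10. Kif3a, a motor subunit of kinesin-2, was highest at step 1 with 491 CPM and averaged 8.60 CPM at step 9.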
